A study of Mus musculus with 90 samples.

Results

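The DMRs in gene deserts are 708 (46.7%) of the regions that gained methylation when Dnmt1 was restored in mouse embryonic stem cells (ESCs) without active Dnmt3a and Dnmt3b. A desert DMR was defined here as one that lies more than 50 kb from the nearest protein-coding gene body of the GENCODE vM1 annotation (22380 such genes, mm9). The other 807 DMRs divide into 523 (34.5%) intergenic DMRs up to 50 kb from a gene, called near-gene DMRs below, and 284 (18.7%) that overlap a gene, called genic DMRs. The study called the DMRs from whole-genome bisulfite sequencing at passage 15 (P15) of DKO0 against TKOL, and filtered them with Nanopore reads. Distance to genes was the only property used to choose the members, and their peaks and sequence did not enter the choice. Length and spacing are tied to it in part, because a longer region is more likely to touch a gene and because deserts take up only part of each chromosome. The kind of gene that lies nearest is tied to it as well.

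DNA methylation in mammals is laid down by the de novo enzymes Dnmt3a and Dnmt3b and copied at replication by Dnmt1, which is brought to hemimethylated CpGs by Uhrf1. Trim28 (Kap1) is the corepressor that KRAB zinc finger proteins recruit to retrotransposons, where the methyltransferase Setdb1 then trimethylates lysine 9 of histone H3 (H3K9me3). Intracisternal A-particle (IAP) elements are endogenous retroviruses of the mouse that are silenced in this way and stay methylated through early development. Gene deserts are long stretches without protein-coding genes.

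H3K9me3 and Trim28 were measured by ChIP-seq and Uhrf1 by ChIPmentation on a FLAG-tagged allele, in 3 lines with 2 replicates each. The WT line was V6.5. TKOL and DKO0 were of the J1 strain and carried inactive Dnmt3a and Dnmt3b in common. In TKOL, Dnmt1 was depleted by an shRNA, and DKO0 was derived from clonal TKOL cells by Cre excision of that shRNA. WT thus differs from both other lines in strain as well as in genotype, and these cannot be told apart here. For each mark there were 6 peak lists of single replicates and 2 lists from pooled reads (TKOL and DKO0), which makes 24 lists in all. The single lists held 11440 to 63579 peaks and the pooled lists 30516 to 104618 peaks, so that a share of DMRs with a peak also follows the size of its list. A DMR was counted as having a peak if at least 1 bp of it lay in a peak.

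Desert DMRs shared long stretches of sequence with each other. A 31-base word that lies in 243 (34.3%) of the 708 desert DMRs was the word found in most of them, and is shown here with 45 bases on each side as it stands in 6 desert DMRs on different chromosomes. The word is at positions 46 to 76 of each line, CpGs are in capitals, and all lines are written in the same orientation.
DMR_190, chr1:181825618-181825738, minus strand: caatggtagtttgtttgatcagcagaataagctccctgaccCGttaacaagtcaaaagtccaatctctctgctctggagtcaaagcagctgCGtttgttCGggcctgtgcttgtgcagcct
DMR_2101, chr6:58019977-58020097, minus strand: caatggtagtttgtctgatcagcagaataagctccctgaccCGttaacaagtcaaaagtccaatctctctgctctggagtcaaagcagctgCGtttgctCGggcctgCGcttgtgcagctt
DMR_1572, chr3:20588577-20588697, minus strand: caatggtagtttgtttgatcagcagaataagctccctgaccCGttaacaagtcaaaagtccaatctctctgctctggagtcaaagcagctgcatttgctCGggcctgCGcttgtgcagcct
DMR_2538, chr9:93540741-93540861, minus strand: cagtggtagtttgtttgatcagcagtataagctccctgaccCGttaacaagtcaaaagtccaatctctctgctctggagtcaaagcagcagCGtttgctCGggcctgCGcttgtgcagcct
DMR_1974, chr5:59516211-59516331, plus strand: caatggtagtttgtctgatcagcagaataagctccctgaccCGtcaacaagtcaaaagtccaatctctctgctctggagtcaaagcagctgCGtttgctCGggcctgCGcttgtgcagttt
DMR_1414, chr2:66684702-66684822, minus strand: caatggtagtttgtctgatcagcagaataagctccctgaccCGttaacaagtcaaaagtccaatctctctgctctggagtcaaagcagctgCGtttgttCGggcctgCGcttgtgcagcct
The 5 later lines differ from the first in 2 to 6 of 121 bases, and each line holds 3 or 4 CpGs.

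The study amplified IAPEz and IAP LTR sequence for hairpin sequencing, and matches to these amplicons were sought in the desert DMRs. Of the 243 desert DMRs with the word, 82.7% also held a match to the shortened IAPEz reference, against 1.72% of those without the word. IAP LTR matches did not go with the word in this way, at 15.2% of desert DMRs with it and 12.9% of those without it. The matches in the longest desert DMRs that hold one are shown to give the CpGs that these elements bring into a desert.
IAPEz in DMR_190, chr1:181825214-181825301, minus strand: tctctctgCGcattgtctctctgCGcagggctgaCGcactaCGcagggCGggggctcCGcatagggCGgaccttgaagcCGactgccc
IAPEz in DMR_2101, chr6:58019617-58019701, minus strand: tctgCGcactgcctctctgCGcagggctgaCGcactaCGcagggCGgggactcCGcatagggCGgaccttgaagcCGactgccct
IAP LTR in DMR_127, chr1:114161118-114161227, plus strand: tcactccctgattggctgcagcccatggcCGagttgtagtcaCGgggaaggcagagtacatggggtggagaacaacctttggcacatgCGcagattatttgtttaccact
IAP LTR in DMR_2101, chr6:58018574-58018686, minus strand: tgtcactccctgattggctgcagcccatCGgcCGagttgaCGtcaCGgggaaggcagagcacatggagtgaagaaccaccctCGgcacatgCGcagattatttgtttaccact
The IAPEz matches held 8 CpGs each, in 88 and 85 bases, whereas the LTR matches held 3 CpGs in 110 bases and 6 CpGs in 113 bases.

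In all, 209 desert DMRs (29.5%) matched the shortened IAPEz reference with at least 90% identity over 90% of its length, compared with 25.4% of near-gene and 26.1% of genic DMRs. The long form of the IAPEz reference was matched in 34 desert DMRs (4.80%) at the same threshold and in 108 (15.3%) at 80%. IAP LTR matches were found in 97 desert DMRs (13.7%), 11.7% of near-gene and 13.4% of genic DMRs. The autosomes held 1048 copies of the shortened IAPEz reference, of which 493 (47.0%) stood in deserts, and 209 of those 493 (42.4%) lay in a desert DMR. By contrast, only 7.35% of the 1700 desert copies of the IAP LTR reference lay in a desert DMR. Deserts made up 35.1% of the sequenced bases of the 19 autosomes, 46.7% of DMRs and 48.0% of the 1397 copies of the shared word. These shares describe 1 genome and were not tested.

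Most desert DMRs were made of repeated sequence. The median desert DMR had 16.9% of its 31-base words at a single place in the genome, compared with 10.0% in near-gene and 23.1% in genic DMRs, and 108 desert DMRs had no such word at all. At the other end, 49 desert DMRs (6.92%) consisted of at least 90% unique words, against 6.50% of near-gene and 19.7% of genic DMRs. Words that recur in at least 10 desert DMRs were present in 576 (81.4%) of them and made up at least 50% of the words of 305 (43.1%). This was not particular to deserts, since such words made up 34.7% of the median desert, 32.5% of the median near-gene and 9.46% of the median genic DMR. They had been chosen from desert DMRs, which favours a higher share there. Short ChIP reads from such sequence fit several places equally well, which bears on every peak described below. The effect of this on the peak calls was not tested.

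Desert DMRs did not differ much from the others in length. The median was 2000 bp in deserts, with quartiles of 1000 and 3500 bp, against 1750 bp for near-gene and 2000 bp for genic DMRs. The shortest possible DMR of 1000 bp accounted for 25.6% of desert, 25.6% of near-gene and 26.4% of genic DMRs, and 22.7%, 21.8% and 23.2% were longer than 4 kb. As a description, the longest desert DMR had 13250 bp and 3 of 708 exceeded 10 kb, against 12 of 523 near-gene and 5 of 284 genic DMRs and maxima of 27000 and 68000 bp. Desert DMRs held a median of 34.0 CpGs, or 1.90 per 100 bp, compared with 1.80 and 1.68 per 100 bp in near-gene and genic DMRs. GC content was 45.4% at the median of each class. The longest desert DMRs were DMR_190 (13250 bp), DMR_127 and DMR_2101 (10500 bp each), and DMR_1572, DMR_1583 and DMR_2538, which tied at 10000 bp. All 6 held the shared word, and they had a peak in 15 to 18 of the 18 single lists.

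The distance of desert DMRs to the nearest coding gene had a median of 206 kb (quartiles 101 and 418 kb) and reached 1792 kb. The DMRs just past the limit were DMR_2165 on chromosome 7, 50153 bp from Zim1, DMR_2079 on chromosome 6, 50218 bp from Nxph1, and DMR_479 on chromosome 12, 50355 bp from Gm6802. Those just short of it lay 49881 bp (DMR_2324), 49335 bp (DMR_1118) and 49320 bp (DMR_1314) from a gene. Genes of another biotype were overlapped by 21 desert DMRs (2.97%). The genes were 13 pseudogenes, 3 lincRNAs, 3 processed transcripts and 1 miRNA gene, among them the pseudogenes Gm4033 and Gm4040, which share 6500 bp with DMR_2173, Gm10476 (5500 bp, DMR_510), Gm13767 (5250 bp, DMR_1453), Gm4954 (5250 bp, DMR_177) and RP23-138L1.1 (4500 bp, DMR_500). The transcripts Gm11867 (6000 bp, DMR_1738) and Gm13974 (2500 bp, DMR_1477) and the lincRNAs A230004M16Rik (2500 bp, DMR_398) and Gm2078 (2000 bp, DMR_1687) covered their DMRs completely.

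Of the 5 desert DMRs farthest from any coding gene, DMR_375 (chr11:14340751-14341750) was 1792 kb from Gm17624 and 1816 kb from Vstm2a. DMR_919 and DMR_918 on chromosome 15 stood between the cadherin genes Cdh6, at 1553 and 1522 kb, and Cdh9. DMR_1143 on chromosome 17 lay 1536 kb from the nudix hydrolase gene Nudt12 and 2263 kb from Efna5, which encodes an ephrin ligand. DMR_1965 on chromosome 5 lay 1534 kb from Stim2, a calcium sensor of the endoplasmic reticulum, and 2062 kb from the protocadherin gene Pcdh7. These DMRs differed in their peaks, since DMR_919 had a peak in 16 of the 18 single lists and DMR_1965 in 13, whereas DMR_375 had none and showed only H3K9me3 in the pooled lists, at enrichments of 3.19 and 2.79.

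Across all desert DMRs, 513 different coding genes were the nearest one, and 381 of them were nearest to 1 DMR only. A gene with a symbol starting with Cdh was nearest to 16 desert DMRs (2.26%) and to 0 near-gene DMRs, and one starting with Pcdh to 7 (0.989%) and 1 (0.191%). In all 7 of these desert cases the gene was Pcdh7, so that they stand for 1 locus. Genes of arrays showed the opposite order. Olfactory receptor genes (Olfr) were nearest to 2 desert DMRs (0.282%) and 37 near-gene DMRs (7.07%), vomeronasal receptor genes (Vmn) to 7 (0.989%) and 19 (3.63%), and Zfp genes to 5 (0.706%) and 14 (2.68%). The order follows in part from the distance limit itself, since a DMR beside closely spaced genes seldom lies more than 50 kb from one. These counts describe the annotation around the DMRs and were not tested.

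Desert DMRs were found on every autosome and more densely than elsewhere. There were 8.43 per 10 Mb of desert, against 5.19 DMRs per 10 Mb outside deserts. Density varied from 4.45 per 10 Mb on chromosome 19 (6 DMRs) and 4.81 on chromosome 15 (19 DMRs) to 11.6 on chromosome 9 (40 DMRs) and 12.4 on chromosome 12 (66 DMRs). In the reference genome, 57.2% of the 2-kb windows of deserts had at least 10 CpGs, compared with 79.7% of the windows elsewhere. The study set the same minimum, but for CpGs with enough reads in sliding windows and outside missing regions. How many windows could be called, and the cause of the difference in density, were not tested.

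**Figure D1:**
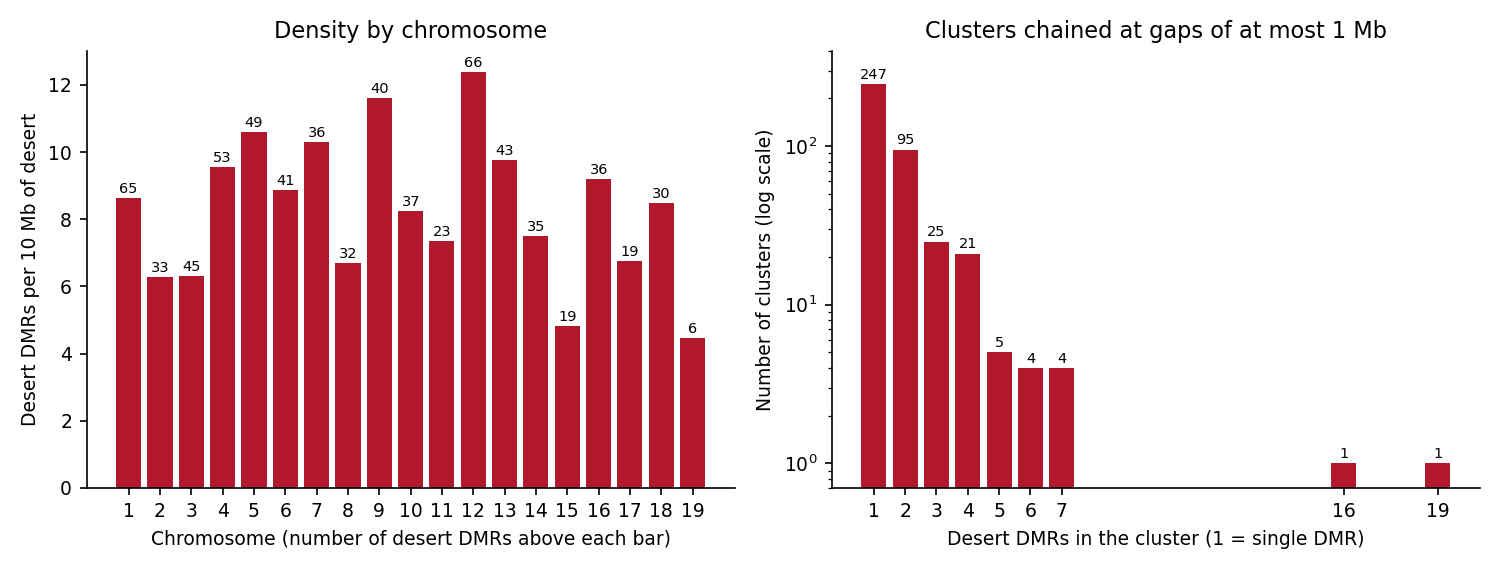
The left panel gives the number of desert DMRs per 10 Mb of desert on each autosome, with the count of DMRs above each bar, and the right panel the number of clusters of each size on a log scale. Chromosome 12 has the highest density, at 12.4 per 10 Mb, and 2 clusters, of 16 and 19 DMRs, stand apart from the others, which hold at most 7.

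When neighbours no more than 1 Mb apart were joined, 461 desert DMRs (65.1%) fell into 156 clusters and 247 stood alone. Of the clusters, 95 were pairs, 51 held 3 to 5 DMRs and 10 held at least 6. The nearest other desert DMR was a median of 468 kb away (quartiles 135 and 1705 kb), and 22.5% of desert DMRs had one within 100 kb. For near-gene DMRs the median distance to another of their class was 768 kb and for genic DMRs 1880 kb, but the classes differ in size. Counted to the nearest DMR of any class, the medians were 333 kb for desert, 325 kb for near-gene and 592 kb for genic DMRs. The smallest gap between desert DMRs was 5.50 kb, and since the study merged neighbouring windows, tighter spacing could not be seen.

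The 2 largest clusters both lie on chromosome 12 and together hold 35 desert DMRs, 4.94% of the total. The first, chr12:18136001-20724500, has 19 DMRs in 2.59 Mb, from DMR_471 to DMR_494, between the predicted gene Gm4983 and 1700030C10Rik. It spans 7 coding genes and 2 annotated genes of other biotypes. The second, chr12:22161001-24846500, has 16 DMRs in 2.69 Mb, from DMR_500 to DMR_516, between Gm17680 and Gm9312. Between its ends are 4 coding genes and 19 annotated genes of other biotypes. With neighbours joined up to 2 Mb, both became a single cluster of 35 DMRs, followed by one of 12. The third cluster, chr13:50002001-52484000, has 7 DMRs in 2.48 Mb between Gm7251 and Diras2, a gene for a small GTPase. It spans 17 coding genes. Of the other clusters with 7 members, the one on chromosome 9 (chr9:11088251-12472750, next to Cntn5, a neural adhesion gene) holds no annotated gene at all.

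The chromosome 12 clusters seldom held the shared word. Only 2 of their 35 members held the shared word, against 241 of the other 673 desert DMRs. At the median, 17.9% of the words of a member recurred in another member of the pair of clusters. In the 1 kb on each side, 9.92% of words recurred among the members, and in no member did this share reach 50%. Their DNA was still repeated in the genome, with 8.32% unique words at the median. Members ran from 1000 to 6000 bp with a median of 2000 bp, and their spacing went down to 5.50 kb.

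Most desert DMRs had an H3K9me3 peak in the pooled lists. A peak was present at 633 of 708 (89.4%, Wilson 95% interval 86.9 to 91.5) in TKOL and at 647 (91.4%, 89.1 to 93.2) in DKO0, against 88.4% and 89.7% of all DMRs, desert and other. In WT, where there were only single lists, 399 (56.4%) and 386 (54.5%) had a peak, against 54.8% and 53.3% of all DMRs. Single lists of the other lines gave 71.9% and 51.8% in TKOL and 78.0% and 57.3% in DKO0. The first replicate was the higher in all 3 lines, and the gap between replicates of TKOL or DKO0 was larger than any difference between line means. With 50% of the DMR covered, the pooled H3K9me3 shares fell to 71.0% in TKOL and 78.0% in DKO0. With −log10 q of at least 5 they fell to 66.1% and 72.5%. All intervals cover the counting of DMRs only.

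Trim28 was found at 469 desert DMRs (66.2%, 62.7 to 69.6) in the pooled TKOL list and at 420 (59.3%, 55.7 to 62.9) in that of DKO0, against 65.0% and 57.8% of all DMRs. In WT the lists held 338 (47.7%) and 267 (37.7%), against 45.4% and 36.3% of all DMRs. Uhrf1 was at 316 desert DMRs (44.6%, 41.0 to 48.3) in TKOL and 299 (42.2%, 38.6 to 45.9) in DKO0 in the pooled lists, against 44.5% and 39.8% of all DMRs. It was at 372 (52.5%) and 425 (60.0%) in the WT lists, against 52.4% and 60.7% of all DMRs. The Uhrf1 shares of the pooled lists hung on the 1-bp rule and the peak threshold, and fell to 0.989% and 1.27% with 50% of the DMR covered and to 7.20% and 7.49% with −log10 q of at least 5. For every mark and list, the desert DMRs thus lay within a few percentage points of DMRs in general.

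**Figure D2:**
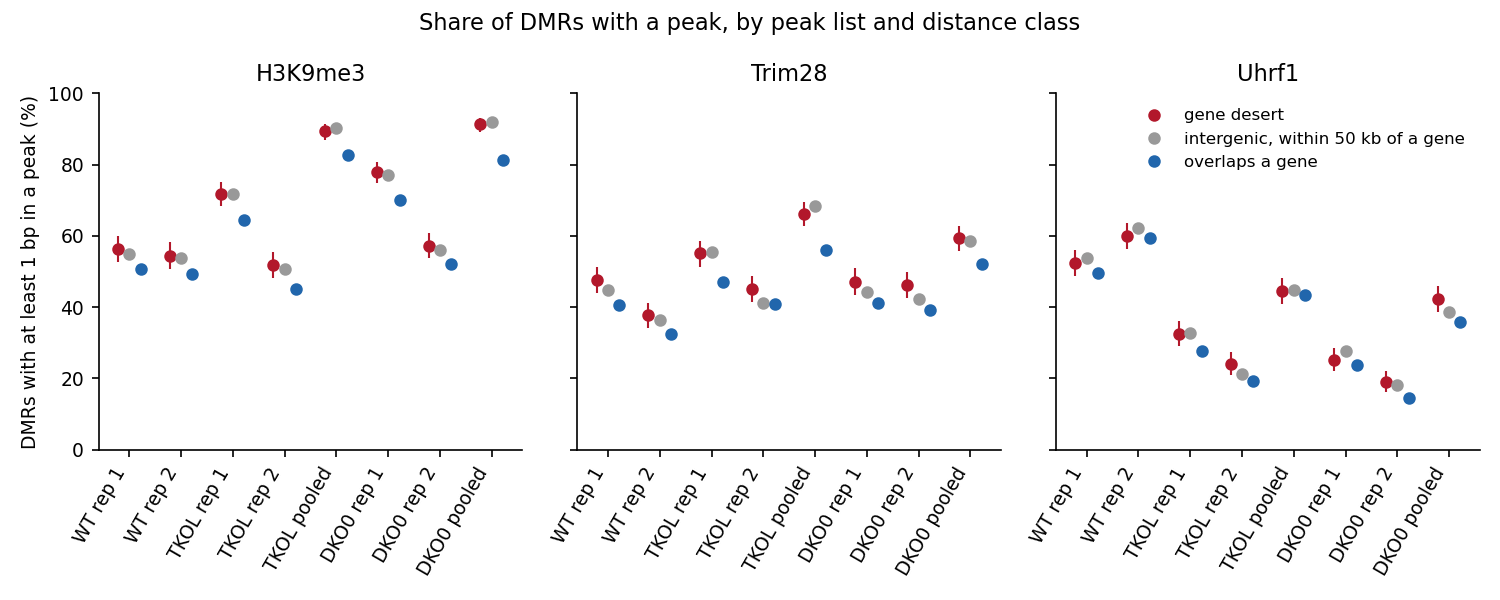
Share of DMRs with at least 1 bp in a peak (%, y axis) in each of the 24 peak lists (x axis), for desert, near-gene and genic DMRs, with the Wilson 95% interval of the desert share as a bar. Desert and near-gene DMRs lie close together in every list, and genic DMRs are lowest in all 8 lists of H3K9me3, of Trim28 and of Uhrf1.

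The open sequence of deserts gave the level that such peaks have outside DMRs. Of 237412 desert windows of 2 kb with at least 10 CpGs and outside any DMR, 13.7% had an H3K9me3 peak in the pooled TKOL list and 13.4% in that of DKO0, and the shares at desert DMRs were 6.54 and 6.83 times as high. Trim28 peaks were in 8.19% and 8.52% of these windows and Uhrf1 peaks in 3.94% and 2.64%, and the shares at desert DMRs were 8.09 and 6.97 times as high for Trim28 and 11.3 and 16.0 times as high for Uhrf1. In the WT lists the ratio was 13.5 and 14.5 for H3K9me3, 13.0 and 16.5 for Trim28, and 16.5 and 12.3 for Uhrf1. The windows were not matched to the DMRs in length, CpG density or repeats.

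H3K9me3 peaks at desert DMRs were wide and Uhrf1 peaks narrow. The widest H3K9me3 peak at a desert DMR was 4746 bp at the median in TKOL and 5338 bp in DKO0, and was longer than the DMR itself in 67.5% and 75.4% of cases. Trim28 peaks there were 2602 and 1829 bp wide, while Uhrf1 peaks were 330 and 289 bp wide and never longer than the DMR. The median of all peaks of these lists was 296 and 377 bp for H3K9me3, 282 and 230 bp for Trim28, and 166 and 168 bp for Uhrf1. The value of a DMR is the highest of up to 8 peaks, for width and for enrichment, and is larger than that of a single peak in part for this reason. The highest fold enrichment at a desert DMR with a peak, which is the ratio to local background that the peak caller gives, had a median of 7.08 in TKOL and 6.62 in DKO0 for H3K9me3, against 2.90 and 2.64 over all peaks of those lists. For Trim28 it was 6.22 and 9.02, against 3.19 and 3.94, and for Uhrf1 3.14 and 2.90, against 2.82 and 2.59. In the single H3K9me3 lists the order was the other way round, with medians of 2.39 to 3.39 at desert DMRs and 2.63 to 3.45 over all peaks.

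Cover fell off within a few kilobases of the DMR centre. H3K9me3 peaks covered 71.3% of bases in the central 500 bp in TKOL and 77.8% in DKO0, 17.5% and 22.1% at 5 kb and 5.60% and 7.29% at 9 to 10 kb. Trim28 cover went from 45.2% and 37.0% at the centre to 6.16% and 5.55% at 5 kb, and Uhrf1 cover from 4.94% and 4.69% to 1.02% and 0.782%.

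**Figure D3:**
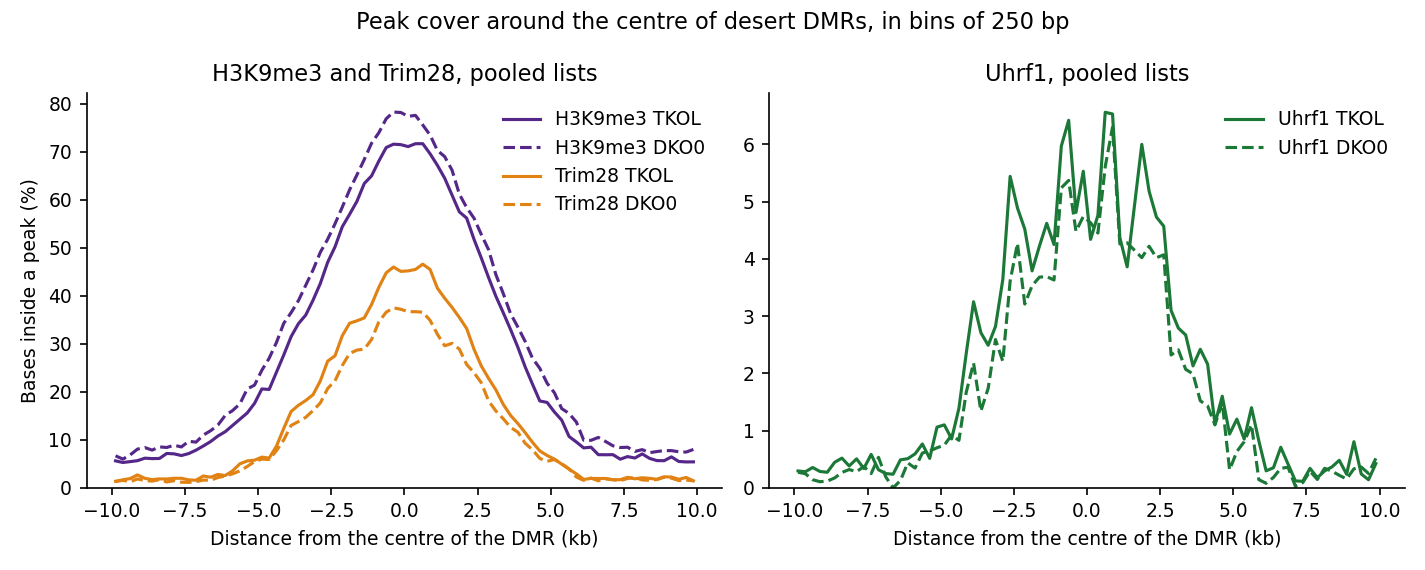
Bases inside a peak of the pooled lists (%, y axis) by distance from the centre of the 708 desert DMRs (kb, x axis, bins of 250 bp), with solid lines for TKOL and dashed lines for DKO0. H3K9me3 and Trim28 form broad mounds and Uhrf1 a low one, and cover 9 to 10 kb away is 5.60% to 7.29% for H3K9me3 and 0.279% to 1.92% for the others.

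In the pooled lists of TKOL and DKO0, the marks were nearly nested. In TKOL, all 469 desert DMRs with Trim28 also had H3K9me3, and 311 of the 316 with Uhrf1 had both. A further 158 (22.3%) had H3K9me3 and Trim28 without Uhrf1, 161 (22.7%) had H3K9me3 alone, and 73 (10.3%) had no peak of any mark. All 3 marks were at 43.9% of desert, 44.4% of near-gene and 40.1% of genic DMRs in TKOL. H3K9me3 and Trim28, H3K9me3 alone and no mark were at 23.3%, 22.0% and 9.18% of near-gene DMRs. For genic DMRs these shares were 15.8%, 24.3% and 16.5%. In DKO0, 288 (40.7%) had all 3, 131 (18.5%) H3K9me3 and Trim28, 217 (30.6%) H3K9me3 alone and 60 (8.47%) none. Uhrf1 without H3K9me3 occurred at 2 desert DMRs in TKOL and at 0 in DKO0, and Trim28 without H3K9me3 at 0 and 1. The WT lists did not follow this order, since 452 desert DMRs had Uhrf1 in at least 1 WT list, against 430 with H3K9me3 and 351 with Trim28.

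The same desert DMRs carried a mark in TKOL and in DKO0 for the most part. H3K9me3 was in the pooled lists of both lines at 626, in TKOL alone at 7 and in DKO0 alone at 21. Trim28 was in both at 408, in TKOL alone at 61 and in DKO0 alone at 12. Uhrf1 was in both at 264, in TKOL alone at 52 and in DKO0 alone at 35. In WT, 119 desert DMRs had a Uhrf1 peak in at least 1 list and none in either pooled list, and this was so for 1 desert DMR with H3K9me3 and 6 with Trim28. These 3 counts cannot be compared, because list sizes differed. The WT lists held 30134 and 49156 Uhrf1 peaks and the pooled lists 40754 and 30516, but for H3K9me3 they held 29440 and 25953 against 104618 and 92462. No count in this paragraph was set beside those of near-gene and genic DMRs.

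Comparisons of lines at desert DMRs rested on 2 lists each and could not reach p under 1 in 3. The share with Uhrf1 was 56.3% ± 5.29 (SD, n = 2) in WT, 28.2% ± 5.99 (n = 2) in TKOL and 22.2% ± 4.39 (n = 2) in DKO0. Both WT lists lay above both TKOL lists, by 28.0 percentage points in the mean (exact two-sided permutation test with the smallest p it can give, adjusted p = 1.00 over 6 tests). The WT lists of Uhrf1 were also larger, at 30134 and 49156 peaks against 17444 and 14815 in TKOL, and with the same number of peaks per list the difference was 19.3 points. The difference of DKO0 to TKOL was -6.07 points (exact permutation test, p = 0.667) with overlapping lists, and with the same number of peaks it was 0.636.

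H3K9me3 had means of 55.4% ± 1.30 in WT, 61.9% ± 14.2 in TKOL and 67.7% ± 14.6 in DKO0 (SD, n = 2 each). Neither DKO0 (5.79 points above TKOL, exact permutation test, p = 0.667) nor WT (-6.43 points, p = 1.00) was separated from TKOL. Trim28 had means of 42.7% ± 7.09 in WT, 50.1% ± 7.09 in TKOL and 46.7% ± 0.699 in DKO0, and the lists of DKO0 (-3.39 points, exact permutation test, p = 1.00) and WT (-7.34 points, p = 0.667) overlapped those of TKOL. The labels do not give the passage of the DKO0 cells used for ChIP. In the names of the deposited lists, Trim28 and H3K9me3 are marked p5 but Uhrf1 is marked p3, so that the marks of DKO0 may come from different passages.

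Within each list, desert DMRs carried the marks more often than genic DMRs. H3K9me3 was 6.37 ± 1.17 percentage points higher (SD over lists) in deserts and higher in 6 of 6 single lists, from 5.22 to 7.90 points. Trim28 was 6.29 ± 1.38 points higher (6 of 6 lists, 4.21 to 7.90) and Uhrf1 3.12 ± 1.84 points higher (6 of 6 lists, 0.521 to 4.67). Each of these 3 differences had a p of 1 in 32 in an exact two-sided sign-flip permutation test over 6 lists, the smallest it can give, and an adjusted p = 0.0469 over 6 tests. Against near-gene DMRs, desert DMRs were higher by 0.977 ± 0.461 points for H3K9me3 (6 of 6 lists, exact sign-flip permutation test, adjusted p = 0.0469). They were higher by 2.39 points for Trim28 (5 of 6 lists, exact sign-flip permutation test, adjusted p = 0.0750) and differed by -0.441 points for Uhrf1 (2 of 6 lists higher, adjusted p = 0.625), neither of which passed. In the pooled lists H3K9me3 had the opposite order, at 89.4% of desert and 90.2% of near-gene DMRs in TKOL and 91.4% and 92.0% in DKO0. Pooled Trim28 was at 66.2% of desert and 68.3% of near-gene DMRs in TKOL, and at 59.3% and 58.7% in DKO0. All lists read the same DMRs, and TKOL and DKO0 come from 1 clone, so the test covers the spread between lists and not that between regions. It also took the 2 replicates of a line as independent lists. With 1 value for each of the 3 lines, a sign-flip test could not give p under 0.25.

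The word was present in 34.3% of desert, 27.7% of near-gene and 25.7% of genic DMRs. It had been chosen as the word in most desert DMRs, which favours a higher share there. The class differences were recomputed among DMRs with and without it, a split added after the data were seen. Among DMRs with the word, desert minus genic was -0.961 points for H3K9me3, -3.76 for Trim28 (lower in all 6 lists) and 0.135 for Uhrf1. Among those without it, it was 2.43 points for H3K9me3, 1.75 for Trim28 and -1.13 for Uhrf1. Desert minus near-gene for H3K9me3 was 0.0780 points with the word and -3.78 points without it, where desert DMRs were the lower in all 6 lists. For Trim28 it was -1.89 and -2.28 points, opposite in sign to the 2.39 points over all DMRs, and lower in all 6 lists both times. For Uhrf1 it was -4.68 and -2.96 points, further from 0 than the -0.441 over all DMRs. None of these values passed the test over 6 (adjusted p = 0.0938 to 0.969, exact sign-flip permutation test), so that no class difference passed in this split. The values lower in all 6 lists were at the smallest p the test can give. Too few of the 6 tests reached that p for an adjusted p below 0.05. Calls were also lost in other settings, but the differences to genic DMRs were not smaller in all of them. H3K9me3 and Trim28 were 6.11 and 6.29 points higher with a limit of 100 kb, 7.41 and 6.46 with distances to any annotated gene and 10.5 and 10.3 with DMRs up to 2 kb, each still at the smallest p of the test, and the adjusted p rose because fewer of the 6 tests reached that p. They were 3.04 and 1.09 points higher with 50% of the DMR covered and 4.33 and 2.99 with −log10 q of at least 5. With a limit of 25 kb, desert DMRs were higher than near-gene DMRs for Trim28 (3.53 points) and Uhrf1 (1.62 points), both with every list higher and past the exact sign-flip permutation test.

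Desert DMRs with and without the shared word differed in their peaks. All 243 with the shared word had H3K9me3 in both pooled lists, whereas of the 465 without it 83.9% had it in TKOL and 86.9% in DKO0. Trim28 was at 241 of the 243 (99.2%) in TKOL and in DKO0, against 49.0% and 38.5% of those without the word. Uhrf1 was at 86.8% and 83.5% of those with the word, against 22.6% and 20.6%. In WT, H3K9me3 was at 97.5% and 98.4% of those with the word and at 34.8% and 31.6% of the others. The share was higher with the word in all 18 single lists, by 32.9 to 67.7 percentage points for H3K9me3, 63.5 to 72.5 for Trim28 and 24.9 to 60.4 for Uhrf1.

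Desert DMRs with the word were also longer, at a median of 4500 bp against 1500 bp, so the shares were set out by length. Among desert DMRs of up to 2 kb, Trim28 was at 98.5% of the 67 with the word and 43.3% of the 330 without it in TKOL, and Uhrf1 at 71.6% and 18.8%. Above 4 kb the contrast was smaller, with Trim28 at 99.2% of 130 and 93.5% of 31, and Uhrf1 at 94.6% and 64.5%. Among the DMRs without the word, Uhrf1 in TKOL went from 18.8% up to 2 kb through 22.1% to 64.5% above 4 kb. Over all desert DMRs, the share with all 3 marks was 15.5% at 1 kb and 88.8% above 4 kb in TKOL. The part of length in the contrast by word was not tested further.

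**Figure D4:**
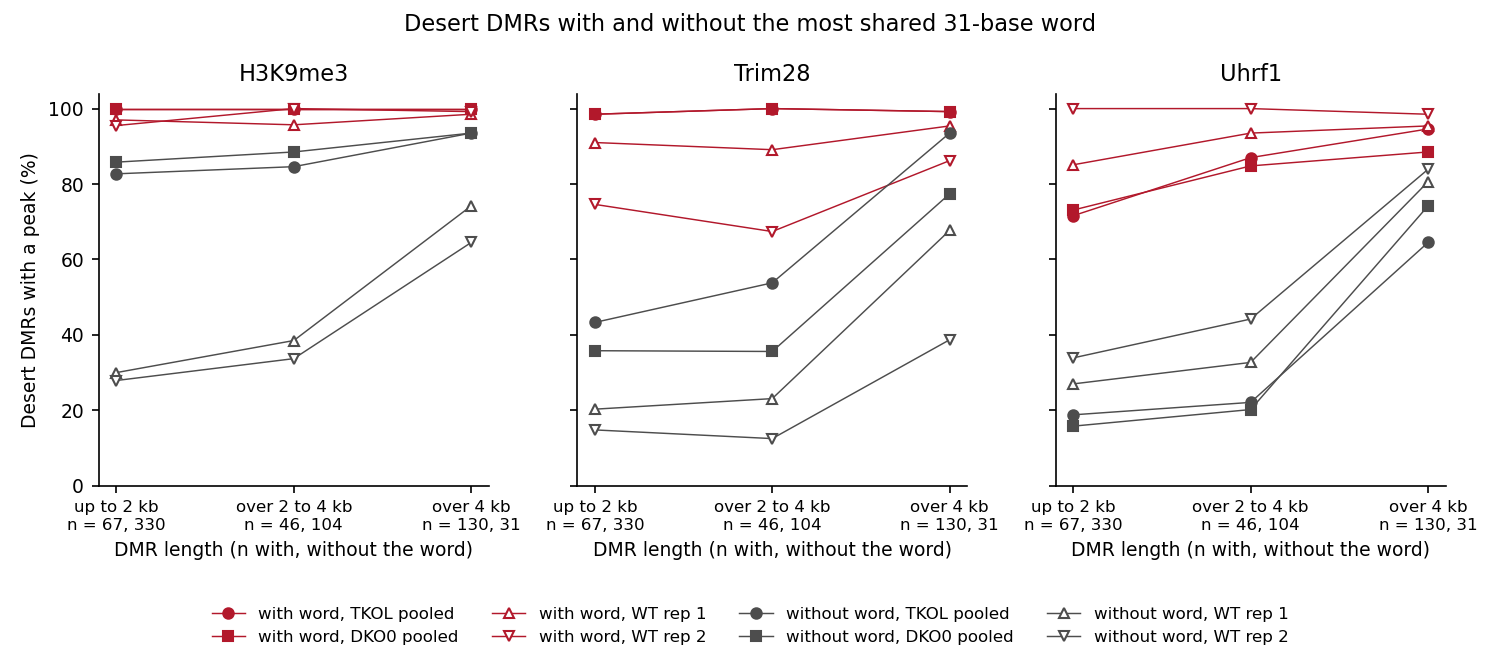
Share of desert DMRs with a peak (%, y axis) by DMR length (x axis, with the number of DMRs with and without the word under each bin), in the 2 pooled lists and the 2 WT lists of each mark. Red points, with the shared word, lie above grey points, without it, at every length and in every list shown, and most grey points are highest above 4 kb.

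The 49 desert DMRs of unique sequence stood at the other end. None of them had a Trim28 peak in either pooled list, which allows a share of up to 6.12% by the rule of 3 counts and up to 7.27% by the Wilson interval, and 1 had Uhrf1 in TKOL and 0 in DKO0. In the WT lists, Trim28 was at 4.08% and 0% and Uhrf1 at 10.2% and 12.2%. H3K9me3 was at 28 (57.1%, 43.3 to 70.0) in pooled TKOL and 29 (59.2%, 45.2 to 71.8) in pooled DKO0, and at 6.12% and 4.08% in the single WT lists. The pooled lists held 104618 and 92462 H3K9me3 peaks and the WT lists 29440 and 25953, so these shares do not compare the lines. Shares in the single lists of TKOL and DKO0 are not given here. Against the 659 desert DMRs with less unique sequence, the share was lower in all 18 single lists, by up to 55.0 points for H3K9me3, 59.2 for Trim28 and 51.3 for Uhrf1. The words of these DMRs mostly occur at 1 place in the genome, whereas those of the other desert DMRs are more often repeated. The placement of reads was not examined, and sequence and read placement cannot be told apart here.

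Inside the deserts, shares were set out by distance to a gene. Pooled H3K9me3 in TKOL was at 90.6% of the 171 desert DMRs 50 to 100 kb from a gene, 92.1% of those at 100 to 200 kb, 86.6% of those at 200 to 500 kb and 88.9% of the 144 beyond 500 kb. Trim28 was at 66.1%, 67.8%, 63.4% and 68.8%, and Uhrf1 at 43.3%, 43.5%, 43.5% and 49.3%. Between the farthest and the nearest of these bins the single lists differed by -1.86 to 3.25 points for H3K9me3, 2.05 to 5.56 for Trim28 and -0.804 to 6.18 for Uhrf1. All 3 marks were at 44.3% of clustered and 43.3% of lone desert DMRs in TKOL, and at 39.0% and 43.7% in DKO0, which was not tested.

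The large chromosome 12 clusters carried fewer peaks than other desert DMRs in the single lists. In the pooled lists 34 of their 35 members (97.1%) had H3K9me3 in TKOL and 34 in DKO0, against 89.0% and 91.1% of desert DMRs elsewhere. In the single lists between 3 (TKOL replicate 2) and 24 (TKOL replicate 1 and DKO0 replicate 1) had it. Trim28 was at 20 members in pooled TKOL and 7 in pooled DKO0, and Uhrf1 at 5 and 7. In WT, Uhrf1 was at 11 and 16 members, more than the 10 and 6 with H3K9me3. Median fold enrichment of H3K9me3 was 4.86 in TKOL and 3.74 in DKO0, against 7.72 and 6.87 in the other desert DMRs. All 3 marks were present in TKOL at 14.3% of members and at 45.5% of desert DMRs elsewhere. The share with a peak was lower in the clusters in all 18 single lists, by 3.49 to 45.5 points for H3K9me3, 12.9 to 38.4 for Trim28 and 8.04 to 25.2 for Uhrf1. Only 2 members held the shared word. Of the 465 desert DMRs without it, 34.8% and 31.6% had H3K9me3 in WT, against 28.6% and 17.1% of members. WT Uhrf1 was at 31.8% and 39.6% of the 465 and 31.4% and 45.7% of members. Pooled Trim28 was at 49.0% (TKOL) and 38.5% (DKO0) of the 465 and 57.1% and 20.0% of members. The part of the word in the contrast was not tested.

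Inside these clusters the members differed widely. DMR_471, which opens the first cluster and holds the shared word, had a peak in 17 of 18 single lists, and DMR_510 in the second in 16. DMR_475, DMR_476 and DMR_477, neighbours in the first cluster, had none in these lists, and neither did DMR_503, DMR_505 and DMR_508 in the second. The median member had a peak in 4 of 18 single lists in the first cluster. In the third cluster, on chromosome 13, the median was 15, and DMR_694 had a peak in all 18 and DMR_689 in 1.

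A peak in all 18 single lists was found at 41 desert DMRs (5.79%), against 7.84% of near-gene and 4.58% of genic DMRs, and 34 of the 41 held the shared word. Their median length was 5000 bp and they had 2.17 CpGs per 100 bp. The 5 longest were DMR_190, DMR_1572, DMR_2538, DMR_211 and DMR_602. In DMR_190, 58.1 kb from Cdc42bpa, H3K9me3 enrichment was 2.56 and 2.64 in WT, 2.19 and 2.93 in TKOL and 1.97 and 3.06 in DKO0, and 9.80 and 9.98 in the pooled lists. Its Trim28 enrichment was 4.70 and 4.28 in WT, 4.08 and 4.44 in TKOL and 4.37 and 4.09 in DKO0, and Uhrf1 lay between 3.34 and 4.37 in the single lists. The single values of the lines overlap for all 3 marks, and the pooled H3K9me3 values lie above every single one. In DMR_2101, whose sequences are printed above, Trim28 reached 20.9 in pooled DKO0 and 9.82 in pooled TKOL.

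No peak in any of the 24 lists was found at 40 desert DMRs (5.65%), against 4.78% of near-gene and 12.3% of genic DMRs. None of the 40 held the shared word, 84.3% of their words were unique at the median, and they had 1.00 CpG per 100 bp. The 5 longest were DMR_1427 (7000 bp, chromosome 2, 73.6 kb from Cwc22), DMR_2452 (3500 bp, chromosome 9), DMR_140 (3000 bp, chromosome 1), DMR_1978 (2500 bp, chromosome 5) and DMR_2217 (2500 bp, chromosome 7), the last at the same length as DMR_398 and DMR_756.

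Copies of the shared word outside DMRs gave a comparison within the same sequence. Of 671 copies in deserts, 249 (37.1%) lay in a desert DMR and 422 in none, compared with 32.8% of copies near genes and 26.0% of copies in genes that lay in a DMR. In a 2-kb window around each copy, H3K9me3 was present in pooled TKOL at 100% of copies inside and 99.8% outside DMRs, Trim28 at 99.6% and 98.8%, and Uhrf1 at 71.5% and 73.7%. In pooled DKO0, Uhrf1 was at 68.7% inside and 62.6% outside. In WT, Uhrf1 was at 74.3% and 93.6% of copies inside DMRs and at 79.9% and 91.5% of those outside. Over the 24 lists the difference between inside and outside ran from -5.56 to 6.12 percentage points. All 422 windows outside DMRs had at least 10 CpGs, with a median of 59.0 against 62.0 inside. Reads of near-identical copies may be placed at either, and how many of the 422 had been removed by the Nanopore filter was not tested.

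**Figure D5:**
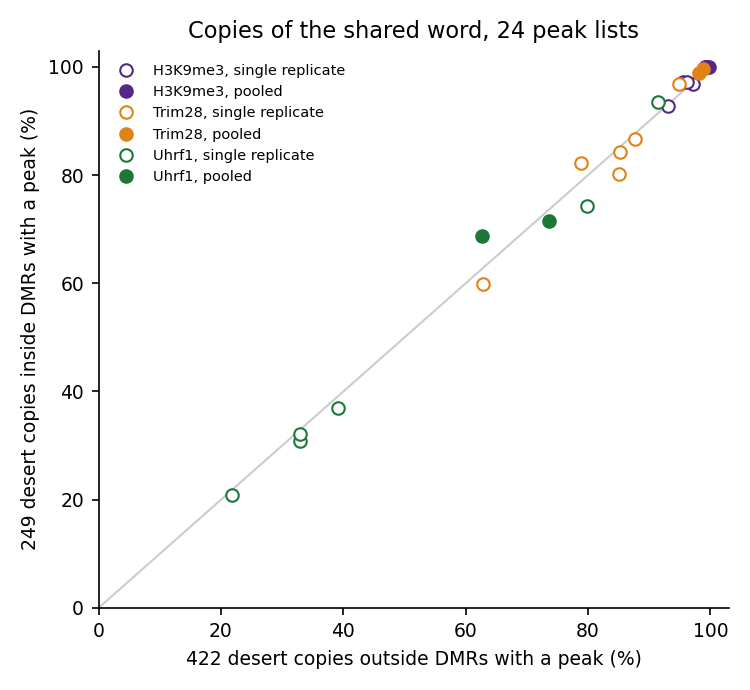
Each point is one of the 24 peak lists and gives the share of desert copies of the shared word with a peak in the surrounding 2 kb, outside DMRs (%, x axis, 422 copies) and inside desert DMRs (%, y axis, 249 copies), with a grey line of equality. The points follow the line, with differences from -5.56 to 6.12 percentage points.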

How the data were processed

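The DMRs were taken as coordinates from the study's list of filtered DMRs, read as 0-based starts, and its methylation values were not used. For ChIP, the authors mapped to mm9 (BWA mem), dropped duplicate reads (GATK) and ran MACS2 on each replicate and, for TKOL and DKO0, on the merged reads of both. Each of the 24 deposited peak lists gives a fold enrichment (ratio to local background) and the −log10 of the p-value and q-value per peak. How reads with several placements were filtered is not given in the sources used here. Read depth is not in the lists, so precision is limited by the number of lists and of DMRs. WGBS, Nanopore, MeDIP and hairpin data and Uhrf1 inputs were not analysed here.

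Distances to GENCODE vM1 genes, overlaps of at least 1 bp, 31-base word counts over the whole genome and blastn 2.17.0 matches to the study's amplicon references were computed with Python 3.11.15, numpy 2.4.6 and pysam 0.24.0. Overlaps and members were checked with bedtools 2.31.1, and 0 of 24 lists and 0 members differed. The functions for overlaps, distances, permutation tests and word counts were tested on simulated data. Class differences were tested over 6 single lists per mark by exact sign-flip permutation, lines by exact permutation of 2 against 2 lists, each adjusted (Benjamini-Hochberg) over 6 tests, with calls at adjusted p below 0.05. Nothing in the labels says whether replicates are separate cultures. Named genes are those flanking the 3 clusters with the most DMRs and the 5 farthest DMRs, and the 10 genes of other biotypes with the longest overlap. Named DMRs are the farthest, the longest, the cluster members, those at the limit, and those with peaks in all or no lists (the 5 longest). Other genes and DMRs were named after their values were seen. Alternatives were a 50% overlap, −log10 q of at least 5, equal peak numbers, limits of 25 and 100 kb, any annotated gene, DMRs up to 2 kb, each replicate left out, the replicate block, other cluster gaps and match thresholds. The shortened IAPEz reference, the split by the shared word and leaving out the 2 largest clusters were added after seeing the data. The members, lists and tests were chosen with earlier results of these data known.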

Additional observations from a re-analysis of the deposited data

How the results depend on the processing

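Of 224 alternative values, 130 stayed alike, which for a test means the same direction and side of the threshold, for a pooled share a value inside the 95% interval, and for other counts one within 1.5 times. Differences are given in percentage points, desert minus genic and then desert minus near-gene. With 50% of the DMR covered, H3K9me3 differed by 3.04 and 0.408, Trim28 by 1.09 and -0.250 and Uhrf1 (genic) by 0.262, and with −log10 q of at least 5 by 4.33 and -0.458, 2.99 and -0.0671, and 0.0474. In both settings Uhrf1 in DKO0 minus TKOL was 0.0706. In the same order, shares in pooled TKOL and DKO0 became 71.0% and 78.0%, then 66.1% and 72.5% for H3K9me3, 43.2% and 37.6%, then 52.3% and 48.2% for Trim28, 0.989% and 1.27%, then 7.20% and 7.49% for Uhrf1, and 0.989% and 1.13%, then 6.78% and 7.06% for all 3 marks. With equal peak numbers, WT minus TKOL for H3K9me3 was 0.212, and DKO0 minus TKOL was 0.424 for Trim28 and 0.636 for Uhrf1. A limit of 25 kb gave 3.53 for Trim28 and 1.62 for Uhrf1 against near-gene DMRs. A limit of 100 kb gave 6.11 and 0.271 for H3K9me3, 6.29 for Trim28 and 3.21 for Uhrf1 (genic), and any annotated gene gave 7.41 and 0.573, 6.46 and 2.51, where adjusted p was at least 0.0625. DMRs up to 2 kb gave 10.5 and -0.830, 10.3 and 3.43, and pooled shares in TKOL and DKO0 of 85.6% and 88.2% (H3K9me3), 52.6% and 46.3% (Trim28), 27.7% and 25.4% (Uhrf1), and 26.7% and 23.7% (all 3). Only DMRs with the word gave -0.961 and 0.0780 for H3K9me3, -3.76 and -1.89 for Trim28 and 0.135 for Uhrf1 (genic), and those without it 2.43 and -3.78, 1.75 and -2.28, and -1.13. IAPEz matches numbered 108 at 80% and 209 with the shortened reference, and IAP LTR matches 181 at 80%. Leaving out 1 list of 6 makes p under 0.0625 impossible, and the values ranged from 6.07 to 6.60 and 0.876 to 1.13 for H3K9me3, 5.97 to 6.71 and 2.08 to 2.94 for Trim28, and 2.81 to 3.64 and -1.09 to -0.0402 for Uhrf1. DKO0 minus TKOL ranged from -4.52 to 16.1 for H3K9me3, -8.40 to 1.62 for Trim28 and -10.3 to -1.84 for Uhrf1, and WT minus TKOL from -16.5 to 3.60, -12.4 to -2.33 and 23.8 to 32.3. With the replicate block the line differences stayed at 5.79, -6.43, -3.39, -7.34, -6.07 and 28.0, the smallest p with 2 pairs is 0.5, and no call changed. Deviations of equally numbered lists correlated over desert DMRs at 0.03 to 0.44, and the labels give them only a number in common. Except for the lists left out, the cause of these changes was not tested. Read depth is not known from peak lists.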
